A study of Mus musculus with 16 samples.

Results

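Brain tissue is patterned from front to back by transcription factors that are each used in a limited stretch of the neural plate, and the 8 genes described here were taken as a set because they mark successive stretches of it. In forebrain-to-hindbrain order they were Six3, Lhx2, Hesx1, Otx2, En1, En2, Gbx2 and Egr2. They were found by gene symbol in the table of normalised counts, all 8 of them among its 27807 genes, and every one was followed over the 16 libraries. A mean of at least 10 normalised counts over all libraries was required for a test, which 7 of the 8 passed, while Six3, with a mean of 4.21, did not and is given by its values only.

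Poly-A RNA-seq was done on mouse embryonic stem (ES) cells and on their embryoid bodies (EBs), aggregates in suspension in which such cells differentiate. WT lines (Taf4+/+) were compared with lines homozygous for a null allele of Taf4a (Taf4a-/-, here KO), which encodes a subunit of the general transcription factor TFIID. All lines came from blastocysts of heterozygous crosses, and the ES cells were grown on fibroblast feeders with serum and LIF. Each genotype was sampled as ES cells, as EBs before retinoic acid (EB4), after the first day of retinoic acid (EB5) and at the end of the treatment, when the label is neural precursor cells (EB8), with 2 libraries in each of the 8 groups from 2 lines of each genotype. Retinoic acid was given to both genotypes, and only after EB4. No EB5 or EB8 library was without it, so that retinoic acid and further time in culture were not separated. The labels do not say which library came from which line, so that the spread within a group may be that between lines.

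Otx2 and Gbx2 are known for setting the border between midbrain and hindbrain: Otx2 is used in front of it and Gbx2 behind it, and each holds the other back. Before that, Otx2 and Hesx1 act in the epiblast, in the anterior visceral endoderm and in the anterior neural plate, and Gbx2 is also used in ES cells. Retinoic acid, which turns EBs of this kind into neurons, is a caudalising signal in the embryo that favours hindbrain over forebrain identity.

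The depth was 22442118 to 40711826 reads in genes per library, with the 4 ES libraries deeper than all others. Taf4a itself was counted at 1591 to 1960 in the WT libraries and at 1973 to 2400 in the KO libraries. The null allele removes only part of the gene, so that these whole-gene counts do not check the labels. Pou5f1, which marks pluripotent cells, was at 27999 to 36606 in the ES libraries of both genotypes. Pax6, a neural precursor gene, was at 5447 and 5317 in WT EB8 and at 838 and 361 in KO EB8, and Nanog, a pluripotency gene, at 118 and 313 against 7989 and 8408, so that the KO EB8 libraries, which carry the neural precursor label too, held less of the neural and more of the pluripotency marker. Some libraries stood apart in the level of a whole chromosome (X in WT ES replicate 2 and in replicate 2 of each KO stage, 8 in replicate 1 of WT EB4, EB5 and EB8, and 11 in replicate 1 of each KO stage), and no gene of the set lies on these chromosomes. Smaller shifts touched chromosomes that do hold genes of the set. Chromosome 17 (Six3) was at a median log2 level of 0.15 and 0.14 in the KO ES libraries. Chromosome 1 (En1 and Gbx2) was at 0.13 in WT EB4 replicate 2. The part of these shifts in the levels of the genes was not tested. The 2 WT ES libraries were also unlike each other, with Nanog at 6242 and 22357. Chromosome 8, raised in replicate 1 of the WT EB stages (median log2 level 0.38 to 0.41), was not raised in WT ES (-0.15 and -0.16). Chromosome X, high in WT ES replicate 2 (0.47), was at -0.26 to -0.15 in the WT EB libraries. Whether the WT ES and WT EB libraries came from the same lines was not tested. Neither was the part of this in the WT steps from ES to EB4.

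**Figure D1:**
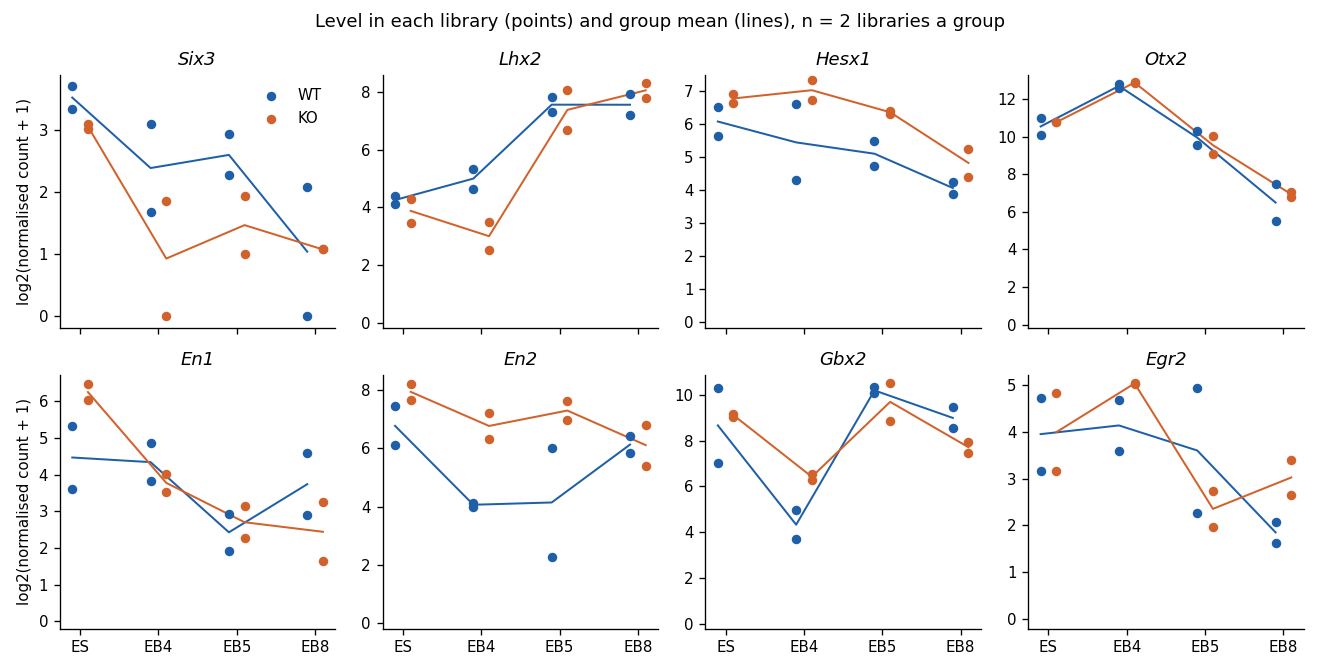
Level of each gene on the log2(normalised count + 1) scale (y axis) at each stage (x axis), with points for the 2 libraries of a group and lines through the group means, WT in blue and KO in orange. Otx2 peaked at EB4 in both genotypes, Lhx2 was high from EB5, and Gbx2 was lowest at EB4; the scale of the y axis differs between panels.

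No gene of the set passed the test between KO and WT at any stage, whereas 3 of them passed between successive stages of the culture. Otx2 rose before retinoic acid and then fell in both genotypes, from 6617 ± 773 normalised counts at EB4 to 111 ± 94.6 at EB8 in WT and from 7483 ± 305 to 121 ± 15.1 in KO (mean ± SD, n = 2). Lhx2 rose with the first day of retinoic acid in both genotypes. Gbx2 fell and rose again in WT, with changes of the same sign in KO that did not pass. The differences between genotypes that came closest to the threshold were a lower Lhx2 at EB4 and a higher En2 at EB4 and EB5 in KO.

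Six3, a homeobox gene of the most anterior neural plate and the eye field (chr17:86012948-86031153, plus strand, mm9), was barely detected. The WT libraries held 9.1 and 12.0 normalised counts at ES, 2.2 and 7.5 at EB4, 3.8 and 6.6 at EB5, and 0 and 3.2 at EB8. The KO libraries held 7.5 and 7.1 at ES, 0 and 2.6 at EB4, 2.8 and 1.0 at EB5, and 1.1 and 1.1 at EB8. Its highest values in both genotypes were thus those of ES cells, and from EB4 onward each KO library had 3 reads or fewer, which was taken as the floor of detection. At these counts no difference between genotypes was detectable. Six3 shares 106 exon bases with Six3os1, a gene on the other strand that was itself at 0 to 1.1 normalised counts.

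Lhx2, a LIM homeobox gene needed for the eye and the telencephalon (chr2:38194801-38225253, plus strand), rose over the first day of retinoic acid in both genotypes. In WT it had 16.4 and 19.9 normalised counts at ES, 24.1 and 39.7 at EB4, 158 and 224 at EB5, and 145 and 244 at EB8. In KO it had 10.0 and 18.6, then 4.7 and 10.2, then 267 and 103, and finally 317 and 224 at the same stages. Both EB4 libraries of KO lay below both of WT, and from EB5 on the genotypes overlapped. The step from EB4 to EB5 was a log2 change of 2.57 (SE 0.55, limma adjusted p = 0.023) in WT and of 4.39 (SE 0.55, limma adjusted p = 0.0012) in KO. At EB4 the KO-minus-WT change was -2.003 on the log2 scale (95% interval -3.21 to -0.80), with a limma adjusted p of 0.054. The same difference passed under DESeq2 (adjusted p = 0.024), and edgeR gave an adjusted p of 0.075. The WT step lost its call without WT EB4 replicate 1 (limma adjusted p = 0.19), without WT EB5 replicate 1 (0.065) and without WT EB5 replicate 2 (0.20).

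Hesx1, a homeobox repressor of the anterior neural plate and pituitary (chr14:27813548-27815515, plus strand), had its lowest group mean at EB8 in both genotypes. Its WT values were 49.1 and 90.9 at ES, 18.6 and 96.5 at EB4, 25.4 and 43.9 at EB5, and 17.9 and 13.8 at EB8. The KO values were 121 and 98.6, then 160 and 106, then 78.7 and 84.4, and at EB8 36.9 and 20.2. At each of the 4 stages both KO libraries lay above both WT libraries, with log2 changes of 0.70 at ES, 1.58 at EB4, 1.26 at EB5 and 0.77 at EB8. None of these passed (limma adjusted p = 0.74, 0.17, 0.30 and 0.43). The interval at EB4 ran from 0.17 to 3.00, and without WT EB4 replicate 2, which had the higher of the 2 WT values, the EB4 change was 2.74 with a limma adjusted p of 0.043. Since the libraries come from 2 lines of each genotype, the 4 stages are not taken as 4 independent comparisons. With 2 libraries a group, such a separation can arise readily without a true difference. The share of all genes separated in this way was not counted. Separation by itself is thus only a description, here and for the other factors.

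Otx2, the homeobox gene that specifies forebrain and midbrain (chr14:49277354-49287319, minus strand), had the highest mean count of the set over all libraries (2427). In normalised counts its group mean was below that of Gbx2 at EB5 and at EB8 in both genotypes. In WT the libraries had 1088 and 2016 normalised counts at ES, 7163 and 6070 at EB4, 1273 and 754 at EB5, and 44.1 and 178 at EB8. In KO they had 1742 and 1722, then 7699 and 7268, then 1029 and 536, and 111 and 132 at EB8. At every stage but EB4 the genotypes overlapped, and at EB4 the KO libraries lay just above those of WT. From ES to EB4 the log2 change was 2.15 in WT and 2.11 in KO (SE 0.53 each; limma adjusted p = 0.017 and 0.048). With the first day of retinoic acid Otx2 changed by -2.75 in WT and by -3.33 in KO on the log2 scale (limma adjusted p = 0.012 and 0.0048), and from EB5 to EB8 by a further -3.45 and -2.61 (limma adjusted p = 0.0018 and 0.047).

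The 95% interval of the KO-minus-WT change of Otx2 was -0.92 to 1.37 at ES, -0.96 to 1.32 at EB4, -1.54 to 0.74 at EB5 and -0.70 to 1.58 at EB8, so that log2 changes above 1.58 or below -1.54 lay outside each of them. Several of its stage calls rested on single libraries. Its rise to EB4 in WT did not pass without WT ES replicate 1, WT EB4 replicate 1 or WT EB4 replicate 2 (limma adjusted p from 0.061 to 0.097), and its rise in KO did not pass without any single one of the 4 KO libraries concerned (0.16 to 0.22). The WT fall to EB5 did not pass without WT EB4 replicate 1 (0.096) or WT EB5 replicate 2 (0.13), the KO fall to EB5 without KO EB5 replicate 2 (0.053), and the KO fall to EB8 without any single one of its 4 libraries (0.13 to 0.24). Over these refits the log2 changes kept their sign.

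En1 and En2 are the engrailed homeobox genes of the midbrain-hindbrain junction. En1 (chr1:122498995-122505873, plus strand) had WT levels of 39.1 and 11.2 normalised counts at ES, 13.2 and 27.9 at EB4, 2.8 and 6.6 at EB5, and 23.1 and 6.4 at EB8. The KO values were 88.0 and 64.3 at ES, 10.5 and 15.3 at EB4, 3.8 and 7.8 at EB5, and 2.1 and 8.5 at EB8. Only at ES did the genotypes separate, with both KO libraries higher by a log2 change of 1.79 (95% interval 0.00 to 3.57, limma adjusted p = 0.43). No step between stages passed for En1.

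En2 (chr5:28492236-28500152, plus strand) was detected in every library. Its WT values were 174 and 67.8 at ES, 16.4 and 15.0 at EB4, 3.8 and 63.7 at EB5, and 55.7 and 85.8 at EB8. The KO libraries had 299 and 202 at ES, 148 and 79.1 at EB4, 195 and 126 at EB5, and 112 and 41.5 at EB8. Both KO libraries were above both WT libraries at ES, EB4 and EB5, and the genotypes overlapped at EB8. The log2 change was 2.71 at EB4 (95% interval 0.65 to 4.77) and 3.17 at EB5 (1.11 to 5.23), with limma adjusted p-values of 0.11 and 0.079. In WT the change from ES to EB4 was -2.71 (limma adjusted p = 0.069), and it passed under DESeq2 (adjusted p = 0.0070) and in limma with a replicate block within genotype (adjusted p = 0.045). DESeq2 called the EB4 difference (adjusted p = 0.016) and edgeR did not (adjusted p = 0.10). The EB5 difference turned on WT EB5 replicate 2, the library at 63.7, without which it was 5.05 with a limma adjusted p of 0.035.

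Gbx2, the homeobox gene of the anterior hindbrain (chr1:91824537-91829865, minus strand), fell before retinoic acid and rose over its first day in WT. The WT libraries had 1273 and 128 normalised counts at ES, 12.1 and 30.0 at EB4, 1065 and 1285 at EB5, and 370 and 699 at EB8. The KO libraries had 580 and 526 at ES, 92.3 and 77.8 at EB4, 1472 and 465 at EB5, and 247 and 177 at EB8. The WT ES libraries lay on either side of both KO ES libraries, both KO libraries were above WT at EB4 and below WT at EB8, and they overlapped at EB5. In WT the log2 change was -4.33 from ES to EB4 (SE 0.84, limma adjusted p = 0.0061; -5.99 without WT ES replicate 2 and -2.68 without WT ES replicate 1, both past the threshold) and 5.86 from EB4 to EB5 (SE 0.84, limma adjusted p = 0.0017). The same steps in KO were -2.69 and 3.27 (limma adjusted p = 0.095 and 0.065), which DESeq2 called and edgeR did not. The KO-minus-WT change was 2.09 at EB4 (95% interval 0.26 to 3.92, limma adjusted p = 0.16) and -1.28 at EB8 (-3.11 to 0.55, limma adjusted p = 0.30). Its exons share 1372 bases with D130058E05Rik on the other strand, which is not among the genes analysed here, and without strand the reads of the shared stretch cannot be told apart.

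Egr2, also called Krox20, is a zinc finger gene of rhombomeres in the hindbrain and is also induced as an immediate early gene (chr10:66998223-67004936, plus strand). Its WT libraries had 25.5 and 8.0 normalised counts at ES, 11.0 and 24.7 at EB4, 3.8 and 29.6 at EB5, and 2.1 and 3.2 at EB8. In KO it had 27.4 and 7.9 at ES, 31.5 and 31.9 at EB4, 5.7 and 2.9 at EB5, and 9.5 and 5.3 at EB8. The KO libraries were above those of WT at EB4 and EB8 and overlapped with them at ES and EB5. At EB8 the WT libraries held 2 and 3 reads, at the floor of detection, and the KO libraries 9 and 5, so that the fitted change there depends on the pseudocount and no fold is given (limma adjusted p = 0.38). Of the 8 immediate early genes listed beside it, limma called 0 between KO and WT at each stage, with 0, 0, 1 and 1 at an unadjusted p under 0.05 from ES to EB8, and edgeR and DESeq2 each called 1 at EB8.

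**Figure D2:**
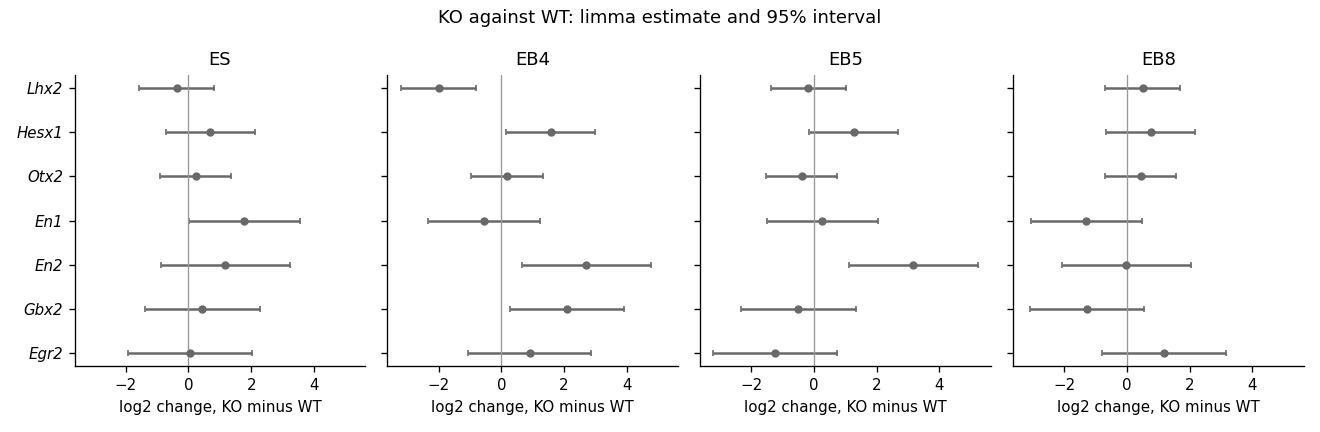
KO-minus-WT change of the 7 tested genes on the log2(normalised count + 1) scale (x axis) at each stage, with points for the limma estimate and bars for its 95% interval. Intervals that leave out 0 are those of En1 at ES, of Lhx2, Hesx1, En2 and Gbx2 at EB4 and of En2 at EB5, and none of these changes passed after adjustment over 16124 genes.

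The comparison of KO with WT asked whether the front-to-back factors were made at other levels without Taf4a. By limma 0 of the 7 tested genes passed at each stage, where 0% of all genes tested passed at ES, 6.12% at EB4, 4.34% at EB5 and 22.9% at EB8. At an unadjusted p under 0.05 the count was 1 of 7 at ES (En1), 4 at EB4 (Lhx2, Hesx1, En2 and Gbx2), 1 at EB5 (En2) and 0 at EB8. edgeR called 0 at every stage, and DESeq2 called 0 at ES (where En1 and Egr2 were left without an adjusted p), EB5 and EB8 and 2 at EB4, Lhx2 lower and En2 higher. Without WT EB4 replicate 2, limma called 1 at EB4 (Hesx1), and without WT EB5 replicate 2, 1 at EB5 (En2). The intervals at EB8 reached from -3.11 to 3.15 over the 7 genes, so that wide changes remain possible there. Those of Otx2, Lhx2 and Hesx1 were narrower, between -0.71 and 2.19, and still held changes of either sign. The median change over the 7 genes was 0.45 at ES, 0.90 at EB4, -0.18 at EB5 and 0.44 at EB8, beside medians over all tested genes of -0.003, -0.004, -0.008 and -0.029.

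**Figure D3:**
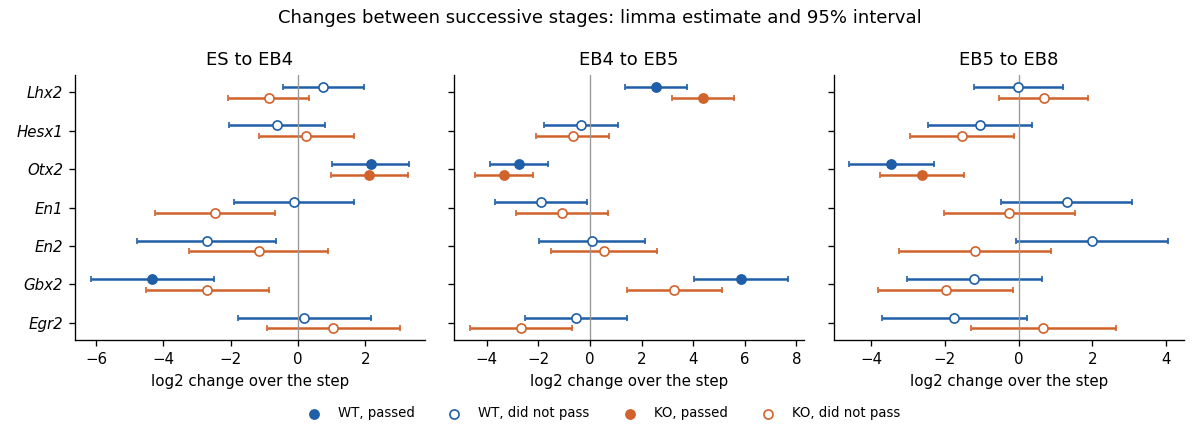
Change over each step of the culture for the 7 tested genes on the log2(normalised count + 1) scale (x axis), WT in blue and KO in orange, with limma estimates as points, 95% intervals as bars and filled points where the adjusted p was under 0.05. Otx2 has filled points in all 6 positions, Lhx2 in both of EB4 to EB5, and Gbx2 in WT for the first and second step.

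Over the culture, the step from ES to EB4 was passed in WT by 2 of the 7 genes (Otx2 and Gbx2; 16.5% of all tested genes) and in KO by 1 (Otx2; 3.5%). The first day of retinoic acid was passed in WT by 3 (Lhx2, Otx2 and Gbx2; 3.73%) and in KO by 2 (Lhx2 and Otx2; 2.51%). From EB5 to EB8, 1 of the 7 passed, Otx2, in WT (10.4%) and in KO (0.738%), and in WT En2 passed as well when WT EB5 replicate 2 was left out. Gbx2 passed in WT and not in KO, which does not show that the genotypes differ, and the interaction term for its step from EB4 to EB5 was -2.59 (95% interval -5.18 to -0.01, limma adjusted p = 1.00). By limma the difference of a step between genotypes was passed by 0 of 7 genes for the first 2 steps (0% of all genes for each) and by 0 for the step from EB5 to EB8 (0.781%). At an unadjusted p under 0.05 these counts were 0, then 2 (Lhx2 and Gbx2), then 1 (En2), and edgeR and DESeq2 called 0 for each step. For En2 the last term was -3.19 (95% interval -6.10 to -0.28, limma adjusted p = 0.45), as it went from 3.8 and 63.7 to 55.7 and 85.8 in WT and from 195 and 126 to 112 and 41.5 in KO. The median absolute change over the 7 genes was 1.91 in WT and 2.68 in KO for the first day of retinoic acid, against 0.29 and 0.32 over all genes tested.

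The promoter windows of Lhx2, Otx2 and Gbx2 are shown because their RNA changed over the first day of retinoic acid, Otx2 downward and the other 2 upward in WT. They are RefSeq windows of 300 bases around an annotated transcription start, on build GRCm38.p6, which is not the mm9 build of the counts. Windows were found for 7 of the 8 genes. Of the 4 windows of Otx2 the ones shown are those with a motif, and of the 2 of Lhx2 the first. Capitals mark matches, on either strand, to TATAAA (the TATA box, the binding site of the TBP subunit of TFIID) and TAATTA (a core bound by many homeodomain proteins). The windows lie at chr2:38339031-38339330 on the plus strand (Lhx2), chr14:48667595-48667894 and chr14:48665060-48665359 on the minus strand (Otx2, starts 1 and 3) and chr1:89931127-89931426 on the minus strand (Gbx2).
Lhx2: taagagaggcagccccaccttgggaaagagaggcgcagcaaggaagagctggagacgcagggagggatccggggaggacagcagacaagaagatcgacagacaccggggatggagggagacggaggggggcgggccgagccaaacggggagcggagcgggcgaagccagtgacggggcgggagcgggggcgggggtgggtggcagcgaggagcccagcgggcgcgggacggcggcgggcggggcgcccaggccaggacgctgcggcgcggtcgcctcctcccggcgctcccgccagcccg
Otx2 start 1: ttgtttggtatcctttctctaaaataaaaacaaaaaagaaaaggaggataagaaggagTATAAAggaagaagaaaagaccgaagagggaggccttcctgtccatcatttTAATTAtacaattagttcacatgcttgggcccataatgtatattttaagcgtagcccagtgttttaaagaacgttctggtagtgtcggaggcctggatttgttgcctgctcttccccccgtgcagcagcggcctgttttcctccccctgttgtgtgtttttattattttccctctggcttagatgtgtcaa
Otx2 start 3: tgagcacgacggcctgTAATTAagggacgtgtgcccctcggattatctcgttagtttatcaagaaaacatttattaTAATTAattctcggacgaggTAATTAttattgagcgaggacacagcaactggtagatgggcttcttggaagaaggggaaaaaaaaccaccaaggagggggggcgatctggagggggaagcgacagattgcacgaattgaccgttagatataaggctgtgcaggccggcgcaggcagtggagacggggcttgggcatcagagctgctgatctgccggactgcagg
Gbx2: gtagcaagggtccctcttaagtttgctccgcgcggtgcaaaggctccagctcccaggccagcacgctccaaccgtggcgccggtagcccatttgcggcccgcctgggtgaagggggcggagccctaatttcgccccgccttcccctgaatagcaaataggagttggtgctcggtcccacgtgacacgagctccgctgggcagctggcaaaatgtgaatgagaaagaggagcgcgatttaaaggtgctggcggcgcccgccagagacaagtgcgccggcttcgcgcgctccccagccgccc

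The Otx2 window at start 1 held TATAAA at position 59 and TAATTA at position 110, and that at start 3 held TAATTA at positions 17, 77 and 97, counted from its 5' end. The Lhx2 and Gbx2 windows held neither, at G+C contents of 74.7% and 64.7% against 41.7% and 51.0% in the Otx2 windows shown. The Otx2 windows at starts 2 and 4, not shown, held neither as well, at 47.7% and 53.7%. So did the second Lhx2 window, at 69.3%. The contrast in motifs between the windows shown is thus partly set by their choice. Among the other genes only the Hesx1 window held one of them, TATAAA on the minus strand at position 254. The letters AGGTCA, a core bound by retinoic acid receptors, were in none of the windows of the set. Over all 32851 windows of the same length, 13.6% held TATAAA, 5.29% held TAATTA and 16.3% held AGGTCA on either strand. Such matches are descriptions of these windows only.

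**Figure D4:**
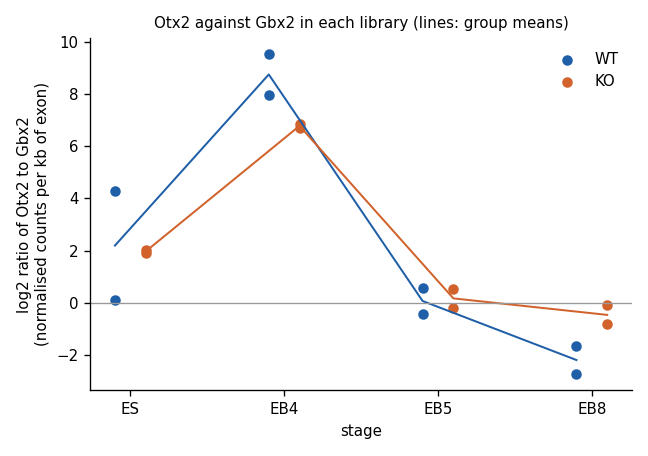
Ratio of Otx2 to Gbx2 in each library, as log2 of normalised counts per kb of exon (y axis), at each stage (x axis), with lines through the group means, WT in blue and KO in orange. The ratio is highest at EB4 in both genotypes, near 0 at EB5, and below 0 in all 4 EB8 libraries.

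Per kb of exon, the log2 ratio of Otx2 to Gbx2 was 0.09 and 4.29 in the WT ES libraries and 1.90 and 2.03 in those of KO. At EB4 the WT libraries had 9.54 and 7.98 and the KO libraries 6.70 and 6.87, so that Otx2 was far above Gbx2 in all 4 libraries and less so in KO. At EB5 the values of WT were 0.58 and -0.45 and those of KO -0.20 and 0.53, and at EB8 they were -2.75 and -1.65 for WT against -0.84 and -0.10 for KO. The change to near equality within 1 day of retinoic acid was seen in both genotypes, and at EB8 the ratio was lower in both WT libraries than in both of KO. These ratios are given as a description, with no test.

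On the scale of normalised counts per kb of exon, Otx2 ranked first of the 8 at ES, EB4 and EB5 in both genotypes, with group means of 457, 1948 and 298 for WT against 510, 2203 and 230 for KO. Gbx2 was the next at ES, without overlap, and at EB5, where the libraries of the 2 genes overlapped in both genotypes. Hesx1 was the next at EB4, at 50.5 in WT and 117 in KO, and it overlapped with neither neighbour in the order. At EB8 Gbx2 led in WT (126 ± 54.9, SD, n = 2), ahead of Lhx2 (62.3) and Otx2 (32.7), whose libraries overlapped. In KO EB8, Lhx2 led (86.7), ahead of Gbx2 (49.97 ± 11.7, SD, n = 2) and Otx2 (35.7), with no overlap between these 3. Six3 was last in every group, at 0.121 to 1.203 per kb.

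Genes whose profile over the 16 libraries was most like that of each factor were found by Pearson's r of log2(normalised count + 1), as a description in which the libraries share stages and lines. Otx2 was followed most closely by Vrtn (0.96), Zic5 (0.95) and Stx3 (0.94), and Lhx2 by 2700033N17Rik (0.96), Gpr157 (0.95) and Hoxb5 (0.95). For Hesx1 the nearest were Gm11560, Canx and Rrbp1 (all 0.90), for En1 Cwc15 (0.90), Cdk11b (0.89) and Syncrip (0.88), and for En2 Rfng (0.87), Ccdc163 (0.86) and Gm11652 (0.855). For Gbx2 they were Ppfia1 (0.86), Mapk15 (0.82) and Zscan20 (0.79), for Egr2 Skiv2l2 (0.88), Zfp747 (0.87) and Abl2 (0.86), and for Six3 Rnf113a2, Tmem179 and Gm17525 (0.82 to 0.85), the last group resting on very low counts. Within the set, the values of Lhx2 ran against those of Otx2 (r = -0.75), while En1 and En2 were only weakly alike (0.34).

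The other genes of the same brain territories were taken from lists and set beside the 8 at EB8, the stage with the most calls between genotypes (22.9% of all genes tested). Of 12 further forebrain and eye field genes 5 could be tested, and 2 of these fell and none rose, with a median of -1.43 (-0.57 when genes at the floor are set to their bound). Lhx5, a LIM homeobox gene, went from 961 and 1185 in WT to 47.5 and 5.3 in KO (limma adjusted p = 0.0051), and Six6, a relative of Six3 used in the eye, from 30.5 and 133 to 4.2 and 4.3 (limma adjusted p = 0.0094). Of 11 further midbrain and isthmus genes 6 fell and 2 rose, with a median of -2.45. Wnt1, the signal made at the border, went from 611 and 2125 to 79.1 and 5.3, Pax5 from 161 and 235 to 6.3 and 2.1, and Pax8 from 388 and 528 to 16.9 and 55.4 (limma adjusted p = 0.0053, 0.00035 and 0.0013). The 2 that rose were Fgf17 and Cnpy1, both in the Fgf signalling of the isthmus. Both also fell from ES to EB4 in WT, passing in limma. Whether their higher level in KO belongs to the isthmus or to retained ES expression was not tested.

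Of 13 further hindbrain genes 5 fell at EB8 and none rose, with a median of -0.98, where 22.9% of all genes passed. Irx3 went from 3620 and 2253 in WT to 444 and 140 in KO, Gbx1, the paralogue of Gbx2, from 230 and 291 to 39.0 and 34.1, and Hoxa3 from 2767 and 3469 to 543 and 376 (limma adjusted p = 0.0017, 0.019 and 0.011). With the first day of retinoic acid 12 of the 13 rose in WT and 10 in KO (3.73% and 2.51% of all genes passed in either direction), the step at which Gbx2 and Lhx2 also rose in WT. At EB4 and EB5 limma called 0 of the 13 between genotypes (1 and 5 at an unadjusted p under 0.05; edgeR 0 and 0, DESeq2 0 and 4). It also called 0 of the 5 further forebrain genes (2 and 2 unadjusted; edgeR 0 and 0, DESeq2 0 and 1), while of the midbrain and isthmus list Cnpy1 was higher in KO at EB4 and Fgf17 and Cnpy1 at EB5. Irx3 lies on chromosome 8, which stood apart in WT EB8 replicate 1, and the part of this in its fall was not tested.

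**Figure D5:**
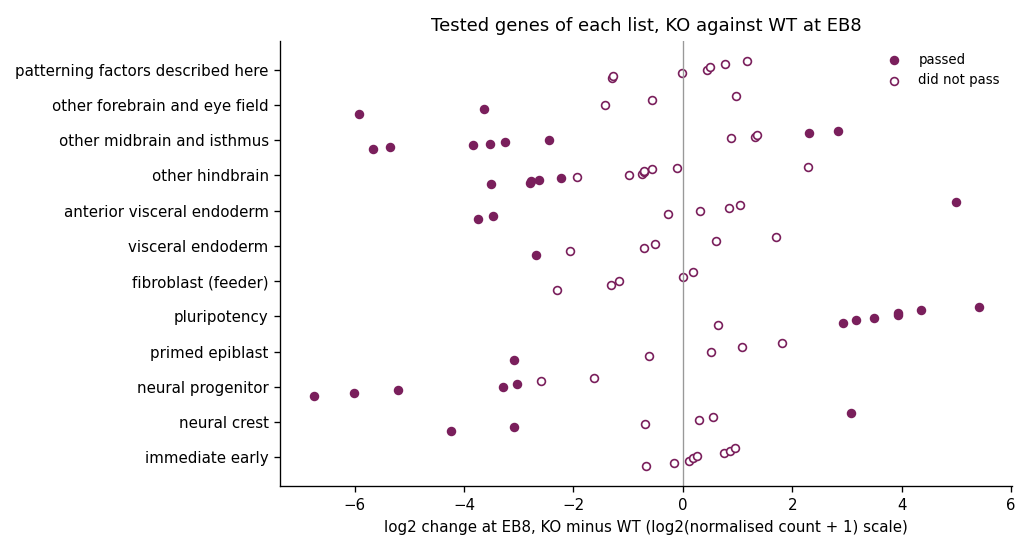
KO-minus-WT change at EB8 on the log2(normalised count + 1) scale (x axis) for the tested genes of each list (y axis), with filled points where the limma adjusted p was under 0.05. None of the 7 tested patterning factors is filled, against 2 of 5, 8 of 11 and 5 of 13 in the lists of other forebrain, midbrain and hindbrain genes and 22.9% of all genes tested; points of genes at the floor of detection depend on the pseudocount.

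Other cell types were followed beside these results. At EB8 22.9% of all genes tested passed between genotypes. In KO, 7 of 8 pluripotency genes rose there and none fell (median 3.72), among them Nanog, Esrrb and Tfcp2l1. The summed level of this list was 28656 and 30800.4 against 1914 and 2248 in WT. Of 7 neural progenitor genes 5 fell and none rose (median -3.29), Pou3f3 from 2289 and 2234 to 84.4 and 42.6, Pou3f2 from 1542 and 2123 to 55.9 and 12.8, and Fabp7 from 354 and 281 to 3.2 and 1.1, the last at the floor. Their summed level was 30218 and 27918 in WT and 4992 and 4882 in KO. In bulk RNA, fewer cells of a type and less RNA per cell cannot be told apart, and how far the mix of cells moved the levels of the patterning factors was not tested. Pluripotency genes already passed at EB4 (3 of 8 higher, beside 6.12% of all genes passing) and EB5 (4 of 8 higher, beside 4.34%). En2 was higher in both KO libraries at ES, EB4 and EB5, without passing in limma, and not at EB8.

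Because Otx2 and Hesx1 are also genes of the anterior visceral endoderm, its markers were counted. At EB8, where 22.9% of all genes passed, 1 of the 7 tested rose and 2 fell in KO (median 0.32). Lefty1 went from 11.6 and 30.7 to 550 and 727, Lhx1 from 2730 and 5043 to 386 and 196, and Foxa2 from 576 and 340 to 40.1 and 38.3. Lhx1 lies on chromosome 11, which stood apart in KO EB8 replicate 1. At EB5, where 4.34% of all genes passed, Sfrp5 and Foxa2 were lower in KO, Foxa2 at 15.2 and 6.8 against 293 and 353. At EB4 (6.12%) limma called 0 of the 7, with 0 at an unadjusted p under 0.05 and 0 by edgeR and by DESeq2. Cer1, a defining marker of that tissue, was below the filter, and whether the other genes marked it in these cells was not tested. Of 6 tested genes of the visceral endoderm, Sox17 fell from 339 and 483 to 53.8 and 72.4 at EB8 and the others did not pass, and Cubn was lower in KO at EB4 and EB5. At EB8 the primed epiblast and neural crest lists, of 5 and 6 tested genes, each had a fall of Foxd3, which is in both. In neural crest Tfap2b also fell and Sox10 rose. Dnmt3a, of the primed epiblast list, was higher in KO at EB4 and at EB5, passing in limma. Of this list edgeR and DESeq2 each called 1 gene at EB4, and 0 and 1 at EB5. Fibroblast genes, the mark of feeders, summed to 904 and 2185 in WT ES and to 161 and 317 in KO ES, and limma called 0 of the 5 tested at each stage (3 at ES at an unadjusted p under 0.05, as many as DESeq2 called there, and 0 by edgeR). Whether feeder RNA had a part in the ES levels of En1, which had the reverse order between genotypes, was not tested.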

How the data were processed

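Poly-A RNA of mouse ES cells and EBs was sequenced by the authors as single-end reads, from libraries of a kit that does not mark strand. The submitters' processing notes name CASAVA 1.7 and 1.8, TopHat2 2.0.10, HTSeq 0.5.4p3, DESeq2 1.0.19 and the genome build mm9. The annotation release and the strand setting of the counting are not given in the sources used here. The deposited values are a normalised signal, the read count of a gene divided by a size factor of its library. All values (100% in each library, tolerance 0.001 reads) were whole multiples of what 1 read is worth, which gave back the read counts, 22442118 to 40711826 per library. Of the 27807 gene identifiers, 27603 were found in GENCODE M1 (mm9), from which positions and exons were taken.

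The 16124 genes that reached a mean of 10 normalised counts entered limma 3.58.1 on log2(normalised count + 1), a scale that understates changes of low genes. A mean per group was fitted over all 16 libraries with a trended prior (8 residual and 4.275 prior degrees of freedom). Tests were two-sided and p-values were adjusted by Benjamini-Hochberg over all genes tested, with a threshold of 0.05. Compared were KO and WT within a stage, each stage against the one before within a genotype, and the genotype difference of these steps. The floor of detection was set at 3 reads in a library and covers counting error only. P-values rest on the spread between the 2 libraries of a group, pooled for each gene over the 8 groups and moderated by the prior. A group whose 2 libraries differ widely, such as WT ES for Gbx2, thus has no larger SE.

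Alternatives were edgeR 4.0.16 and DESeq2 1.42.0 on the recovered reads, other pseudocounts, filters, scalings and thresholds, fits of the compared groups alone, a replicate block, and leaving out each library in R 4.3.3, with Python 3.11.15 for other steps. The code was tested on simulated data. The members and gene lists were chosen with earlier results of these data known, and several listed markers are the study's own. Named from the lists were the 3 passing genes with the largest change at EB8, and, as most alike, the 3 genes with the highest r for each member. Fgf17, Cnpy1, Sfrp5, Cubn and Dnmt3a were named after their values were seen.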

Additional observations from a re-analysis of the deposited data

How the results depend on the processing

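With 2 libraries a group and few reads for Six3, Egr2 and En1, the limits are those of the intervals given for each gene. Calls of members moved as follows. Between KO and WT at EB4 (0 called), the replicate block gave 1 (Lhx2, adjusted p = 0.0456) and DESeq2 gave 2. From ES to EB4 in WT (2), fitting the compared groups alone gave 0, a threshold of 0.01 gave 1, and DESeq2 and the replicate block within genotype gave 3 each, adding En2. From EB4 to EB5 in WT (3), that threshold gave 1, and quantile normalisation and fitting the compared groups alone gave 2 each, losing Lhx2. From ES to EB4 in KO (1), a pseudocount of 0.1, no filter, quantile normalisation and the threshold of 0.01 gave 0 each and DESeq2 gave 2. From EB4 to EB5 in KO (2), fitting the compared groups alone gave 1 and DESeq2 gave 3. From EB5 to EB8 in KO (1), a pseudocount of 0.1, no filter, upper-quartile rescaling, fitting the compared groups alone, edgeR and the threshold of 0.01 gave 0 each. Leaving out each library in turn gave 0 to 1 calls between KO and WT at EB4 and at EB5, 0 at ES and EB8, 1 to 2 and 1 to 3 for the first and second step in WT, 1 to 2 for its last, 0 for the first and last step in KO and 1 to 2 for its second, with 0 for each genotype difference. The cause of these shifts was not tested, apart from the fewer samples of the reduced fits.

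None of the changes between KO and WT that turned their sign had passed. For Gbx2 at ES (0.45) edgeR gave -0.33 and DESeq2 -0.34, for Egr2 at ES (0.04) upper-quartile rescaling gave -0.01, for En1 at EB5 (0.27) quantile normalisation gave -0.21, and for En2 at EB8 (-0.02) upper-quartile rescaling gave 0.12, edgeR 0.13 and DESeq2 0.12. Without 1 library the ranges that crossed 0 were -0.80 to 0.038 (Lhx2), -0.22 to 0.67 (Otx2), -1.20 to 2.10 (Gbx2) and -0.80 to 0.88 (Egr2) at ES, -0.87 to 0.50 (Lhx2), -0.87 to 0.07 (Otx2), -0.23 to 0.76 (En1), -1.33 to 0.33 (Gbx2) and -2.58 to 0.10 (Egr2) at EB5, and -0.55 to 1.43 (Otx2) and -0.72 to 0.69 (En2) at EB8.

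Over all genes, limma and DESeq2 called 0 and 476 at ES, 986 and 2077 at EB4, 700 and 1719 at EB5 and 3697 and 4626 at EB8. Upper-quartile rescaling moved the median change at EB8 from -0.029 to 0.111. Differences between replicates 1 and 2 correlated between WT EB stages (0.523 to 0.605) and between KO stages (0.233 to 0.422). The difference in WT ES did not follow those of the WT EB stages (-0.179 to -0.048). Between WT and KO of the same stage the correlations ran from -0.209 to 0.335, so the replicate numbers were not taken to pair WT with KO. Within a genotype the labels do not say that the numbers mark a line. Neither the replicate block nor that within genotype changed another call of a member.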
